A study of Mus musculus with 6 samples.

Results

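The 8 genes described here are Hmgcs1, Sqle, Fdft1, Idi1, Cyp51, Insig1, Srebf1 and Srebf2, chosen by symbol as genes of cholesterol synthesis and its control. All 8 are rows of a table of 49997 gene symbols. The RNA came from small pre-B cells purified by flow cytometry from bone marrow of C57BL/6 mice aged 6 to 12 weeks, either WT or with the ΔrsCBE genotype, which the labels do not describe further; no other allele or treatment is given for either group. Each genotype had 3 libraries, and nothing says whether these came from separate animals, so p-values measure the spread between these libraries. The library size, the sum of all gene counts, lay between 428106 and 1300805.

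Sterol regulatory element-binding proteins (SREBPs) are transcription factors made as membrane precursors in the endoplasmic reticulum. When membrane cholesterol is plentiful, INSIG proteins hold the escort protein SCAP and its SREBP cargo there. When it is scarce, the complex moves to the Golgi, proteases free the active part of SREBP, and it switches on genes of the mevalonate and sterol pathway through a sterol regulatory element (SRE) in their promoters. SREBP2, encoded by Srebf2, acts mainly on sterol genes and SREBP1, encoded by Srebf1, more on fatty acid genes. Lymphocytes raise this programme when they grow and divide, and small pre-B cells are a stage at which most B-cell precursors have stopped dividing.

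To see which known promoter elements of this feedback the members share, the 250 bases before the RefSeq transcription start (GRCm38.p6) were searched on both strands for an SRE core (TCACNCCA), a CCAAT box (CCAAT, bound by NF-Y), a GC box (GGGCGG, bound by Sp1) and an E-box (CACGTG). RefSeq windows were at hand for 6 of the 8 genes, 8 windows in all because Srebf1 has 3 starts; Fdft1 and Sqle had none. An SRE core occurred in 2 genes, Hmgcs1 and Srebf2, against 3.67% of all 32851 promoter windows. CCAAT occurred in 7 of the 8 member windows (33.8% of all windows) and GGGCGG in 7 of the 8 (32.7%). CACGTG occurred in 1, that of Insig1 (6.02% of all windows). A match describes the letters only and is not evidence of binding. Below are the windows of an enzyme (Hmgcs1, chr13:119690101-119690350), a transcription factor gene (Srebf2, chr15:82147019-82147268) and a feedback gene (Insig1, chr5:28071162-28071411), all on the plus strand, 5′ to 3′, with matches to these 4 motifs in capitals.
Hmgcs1: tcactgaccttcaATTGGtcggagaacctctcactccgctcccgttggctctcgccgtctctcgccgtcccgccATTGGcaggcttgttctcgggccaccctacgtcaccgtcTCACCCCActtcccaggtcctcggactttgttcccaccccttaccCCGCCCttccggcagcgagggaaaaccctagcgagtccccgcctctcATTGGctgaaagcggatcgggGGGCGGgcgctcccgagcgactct
Srebf2: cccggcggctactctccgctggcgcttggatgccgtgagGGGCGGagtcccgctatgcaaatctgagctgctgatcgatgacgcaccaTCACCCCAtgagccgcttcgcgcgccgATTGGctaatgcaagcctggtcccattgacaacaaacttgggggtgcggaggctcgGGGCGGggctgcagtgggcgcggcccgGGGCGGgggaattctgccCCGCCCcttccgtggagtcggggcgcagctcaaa
Insig1: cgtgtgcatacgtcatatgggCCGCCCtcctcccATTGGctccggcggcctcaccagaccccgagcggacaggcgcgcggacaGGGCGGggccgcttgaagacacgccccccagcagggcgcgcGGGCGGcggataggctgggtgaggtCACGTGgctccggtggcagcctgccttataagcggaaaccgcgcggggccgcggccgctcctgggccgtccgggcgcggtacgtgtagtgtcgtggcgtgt
In Hmgcs1 the SRE core starts 137 bases before the transcription start, and in Srebf2 it starts 162 bases before it. In Srebf2 an inverted CCAAT box follows 135 bases before the start. The Insig1 window has no TCACNCCA, and its CACGTG starts 101 bases before the start.

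The libraries themselves differed in a way that bears on the genotype comparison. For Xist, ΔrsCBE replicates 2 and 3 had 1603 and 1430 counts, with at most 1 elsewhere, and 4 Y-linked genes had 0 counts in those 2 libraries and 121 to 452 in the others. Libraries with a female pattern were therefore ΔrsCBE only, and sex cannot be told apart from genotype in them. The pre-B markers (10 genes, Cd79a, Pax5, Rag1 and others) summed to 11590 to 13730 CPM (counts divided by the TMM-scaled library size and put on a common scale) in WT and 12500 to 13010 in ΔrsCBE. Of 5 T and NK cell markers and of 5 erythroid markers, 4 each had 0 counts in all libraries. The myeloid list (7 genes) summed to 51.7 to 81.2 CPM in WT and 53.1 to 66.4 in ΔrsCBE, nearly all of it from Itgam. Of the other myeloid genes, Lyz2 had 0 counts in each WT library and 2, 4 and 2 in ΔrsCBE. S100a9 had 0 in each WT library and 2, 1 and 3 in ΔrsCBE. Csf1r had 4, 0 and 2 counts in WT and 1, 1 and 2 in ΔrsCBE. Mpo had 1 count, in ΔrsCBE replicate 1, and 0 elsewhere. Elane and S100a8 were at 0 throughout. The part of these genes in the results was not tested. The proliferation list (21 genes) summed to 5933 to 6530 CPM in WT and 2631 to 4126 in ΔrsCBE. All 19 of its tested genes had a log2 fold change below 0, as had 3758 of all 7792 tested genes. At an adjusted p-value under 0.05 in edgeR, 9 of the 19 were called lower, against 1.49% of all tested genes.

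None of the 8 sterol and SREBP genes was shown to differ between the genotypes. Of these, 5 had enough counts to be tested (Hmgcs1, Fdft1, Insig1, Srebf1 and Srebf2), and 0 of the 5 passed an adjusted p-value of 0.05 in edgeR's quasi-likelihood test, against 1.69% of all 7792 tested genes (1.49% lower and 0.205% higher in ΔrsCBE). At an unadjusted p-value under 0.05 the count was also 0, against 10.2% of all tested genes. The DESeq2 Wald test called 0 of the 5, and 92 of all 7792 genes. With 5 genes, a count of 0 adds little beside such shares. The CPM values of the genotypes overlapped for each of the 5, whereas they were apart for 16.2% of all tested genes (7.24% higher and 8.95% lower in ΔrsCBE). The log2 fold changes, ΔrsCBE minus WT, lay between -0.08 and 0.06, with a median of 0.04 beside 0.01 for all tested genes. The depth sets how firmly this holds: the 95% confidence intervals still allow falls to 0.579-fold and rises to 1.60-fold, depending on the gene. Because the RNA is from bulk cells, fewer expressing cells and less RNA per cell cannot be told apart.

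Among the regulators, Srebf2 (chromosome 15, 82147181 to 82205379, plus strand, GENCODE M21 on GRCm38) was the most abundant member. In order of replicate, it stood at 106, 109.9 and 100.4 CPM in WT and at 133, 79.5 and 113 CPM in ΔrsCBE. The WT values sat close together and inside the wider ΔrsCBE range, so the groups overlapped. The means were 105 ± 4.77 and 109 ± 27.2 CPM (SD, n = 3), a log2 fold change of 0.05 ± 0.18 (SE; edgeR adjusted p = 0.972). The interval ran from 0.796-fold to 1.34-fold, the narrowest of the 5 tested members. An intron of Srebf2 holds Mir33, a microRNA gene for which no counts were found, whether or not its symbol is in the table.

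Srebf1 (chromosome 11, 60199089 to 60222581, minus strand) stood at 31.6, 50.2 and 47.1 CPM in WT and 50.7, 38.2 and 44.2 CPM in ΔrsCBE. WT replicate 1 was the lowest library and ΔrsCBE replicate 1 the highest, and the groups overlapped. The means were 43.0 ± 9.96 and 44.4 ± 6.24 CPM (SD, n = 3), a log2 fold change of 0.04 ± 0.24 (SE; edgeR adjusted p = 0.979; interval 0.731-fold to 1.44-fold). Srebf1 is read from alternative first exons that give SREBP1a and SREBP1c, and a count per symbol does not separate them. Its exons share 109 bases with Rai1 on the opposite strand.

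Insig1 (chromosome 5, 28071363 to 28078662, plus strand), the feedback gene that SREBP itself induces, had 31.6, 23.9 and 37.8 CPM in WT and 41.3, 25.2 and 36.9 CPM in ΔrsCBE. Low and high libraries occurred in both genotypes. The means were 31.1 ± 6.99 and 34.4 ± 8.33 CPM (SD, n = 3), a log2 fold change of 0.06 ± 0.28 (SE; edgeR adjusted p = 0.976; interval 0.702-fold to 1.54-fold).

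Hmgcs1 (chromosome 13, 119690379 to 119708260, plus strand) encodes HMG-CoA synthase, an early enzyme of the mevalonate pathway. It had 20.5, 28.7 and 22.4 CPM in WT and 24.8, 19.1 and 22.1 CPM in ΔrsCBE, with overlapping groups. The means were 23.9 ± 4.26 and 22.0 ± 2.83 CPM (SD, n = 3), a log2 fold change of -0.08 ± 0.32 (SE; edgeR adjusted p = 0.972; interval 0.601-fold to 1.48-fold). The spread of its 6 counts was no wider than counting noise: the sum of squared deviations over expected counts, divided by the degrees of freedom and near 1 for pure counting noise, was 0.306. The antisense gene Gm48342 shares 557 exonic bases with Hmgcs1, and no counts were found for it.

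Fdft1 (chromosome 14, 63145150 to 63179578, minus strand) encodes squalene synthase, the first enzyme committed to sterols. It had 14.2, 16.7 and 36.3 CPM in WT and 35.4, 18.1 and 19.7 CPM in ΔrsCBE. WT replicate 3 and ΔrsCBE replicate 1 stood above the other 4 libraries, 1 in each genotype, so the spread lay within the groups. Its dispersion ratio was 3.38, the highest of the 8 members, followed by 2.69 for Srebf2; the other 6 lay between 0.306 and 1.40. The means were 22.4 ± 12.1 and 24.4 ± 9.56 CPM (SD, n = 3), while the fitted log2 fold change, which weights libraries by depth, was -0.05 ± 0.36 (SE; edgeR adjusted p = 0.982). The sign differed between fits: it was 0.66 without WT replicate 3 and -0.42 without ΔrsCBE replicate 1. The exons of Fdft1 share 774 bases with Ctsb on the opposite strand, and 9.38% of its 50-base stretches also occur in Gm6781, so its count is uncertain.

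The other 3 enzymes were too low to test. Cyp51 (chromosome 5, 4081145 to 4104746, minus strand), lanosterol demethylase, had 3, 5 and 9 counts in WT and 6, 5 and 9 in ΔrsCBE. The group sums were 17 and 20, a ratio per library size of 1.04 with an exact 95% interval of 0.517 to 2.11 for counting error only. Its exons share 166 bases with Akap9 on the opposite strand. Sqle (chromosome 15, 59315077 to 59331192, plus strand), squalene epoxidase, had 2, 1 and 5 counts in WT and 1, 2 and 1 in ΔrsCBE. In CPM the Sqle groups did not overlap, at 2.39 to 3.86 in WT and 1.18 to 2.01 in ΔrsCBE. These are sums of 8 and 4 counts, a ratio of 0.442 with an interval of 0.0974 to 1.65, so a difference was not detectable at this depth. Idi1 (chromosome 13, 8885501 to 8892451, plus strand), isopentenyl diphosphate isomerase, had 2, 0 and 1 counts in WT and 0, 0 and 2 in ΔrsCBE, at or under the 3 counts taken as the floor. Of its 50-base stretches, 17.7% recur in other annotated genes, for which no counts were found, so its count is uncertain. The plot of CPM by library shows these levels for all 8 genes.

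**Figure D1:**
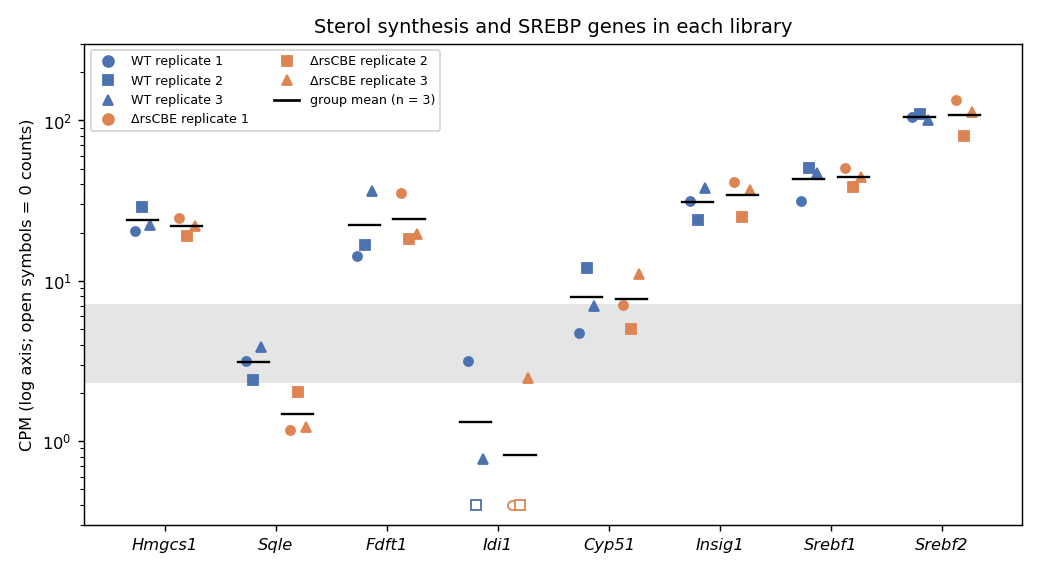
CPM of the 8 genes in each library on a log axis, with WT in blue and ΔrsCBE in orange, the symbol giving the replicate, bars the group means (n = 3) and open symbols 0 counts. The grey band is the CPM of 3 counts, 2.32 to 7.17 depending on the library; Sqle and Idi1 lie in or under it, and the groups overlap for each of the 5 tested genes.

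Levels can be compared between genes only per exonic length. Srebf2 led with 21.1 ± 3.45 CPM per kilobase (SD, n = 6 libraries of both genotypes), and its lowest library, at 15.7, was above the highest of Insig1, at 15.3. Insig1 (12.2 ± 2.64), Srebf1 (10.2 ± 1.74), Hmgcs1 (6.59 ± 0.974) and Fdft1 (6.33 ± 2.65 CPM per kilobase) followed, each overlapping its neighbour. The lowest Fdft1 library, at 3.84, was above the highest Cyp51 library, at 3.04. Cyp51 (1.98 ± 0.772), Sqle (0.836 ± 0.386) and Idi1 (0.352 ± 0.463 CPM per kilobase) overlapped in turn. The 3 regulators thus had higher mean levels per kilobase than any of the 5 enzymes in these cells.

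**Figure D2:**
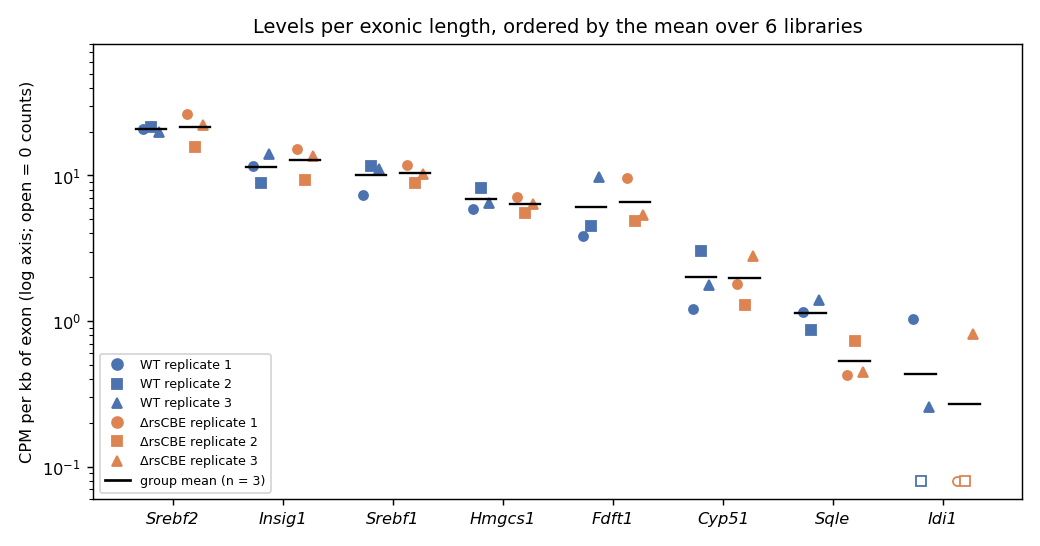
CPM per kilobase of exon (GENCODE M21 protein-coding transcripts) on a log axis, genes ordered by their mean over the 6 libraries, symbols as for CPM. The regulators Srebf2, Insig1 and Srebf1 lie to the left, and Idi1 has 0 counts in 3 libraries.

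Within ΔrsCBE, replicate 2 was the lowest and replicate 1 the highest of the 3 libraries for each of the 5 tested members. The share of all tested genes with this order was not computed. The untested members differed: Cyp51 and Idi1 were highest in ΔrsCBE replicate 3 and Sqle in ΔrsCBE replicate 2. Of other pathway genes, Rnf145 had the same order, while Scap and Ebp were highest in ΔrsCBE replicate 2, at 97.6 and 29.2 CPM. Summed over the 8 genes, the ΔrsCBE libraries had 294, 187 and 251 CPM and the WT libraries 215, 244 and 256 CPM. The group means were 244 ± 53.6 and 238 ± 21.0 CPM (SD, n = 3). ΔrsCBE replicate 2, the lowest, also had the highest proliferation sum of its group, 4126 CPM against 2855 and 2631; the part of this in the result was not tested. ΔrsCBE replicate 1 is the library of that genotype with the male pattern. With the sex pattern as a covariate the genotype effect rests on it alone, and the log2 fold changes became 0.09 for Hmgcs1, 0.48 for Fdft1, 0.33 for Insig1, 0.23 for Srebf1 and 0.35 for Srebf2, with edgeR adjusted p-values from 0.611 to 0.969.

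Pearson correlations of log2 CPM between pairs of the 5 tested members over the 6 libraries ran from -0.06 (Hmgcs1 and Insig1) to 0.76 (Hmgcs1 and Srebf1). These points share library depth, and at such counts a correlation is a description only. Among 3785 tested genes with a mean of at least 50 CPM, the 5 most like the mean profile of the 5 enzymes were Dusp11 (r = 0.959), Txndc11 (0.947), Syncrip (0.934), P2rx3 (0.924) and Med14 (0.916). Insig1 (0.563), Srebf2 (0.525) and Srebf1 (0.408) would have ranked 279, 327 and 564 in that list. The enzymes were no closer to the profile they make up: Cyp51 0.498, Fdft1 0.42, Hmgcs1 0.414, Idi1 0.357 and Sqle 0.282. Each of these is below Insig1 and Srebf2, so the profile stands for no enzyme closely. The enzyme profile rests partly on Sqle and Idi1, which have few counts.

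The wider pathway, 57 listed genes including the members, was read in the same fit. Of these 35 were tested, 1 was called higher and 0 lower, against 0.205% and 1.49% of all tested genes. An unadjusted p-value under 0.05 was reached by 4 of them and by 10.2% of all tested genes. The median log2 fold change of the 35 was 0.05. In the synthesis arms 6 of 21 enzymes were tested and 0 passed in either direction (edgeR; 0 also at an unadjusted p-value under 0.05 and by DESeq2). The other 15 enzymes had at most 51 counts over all libraries, and Fdps, farnesyl diphosphate synthase, had 1 count in each library. Sequence shared with other genes was searched for the members only, so whether it affects the Fdps count is not known.

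Of 12 control genes 11 were tested and 0 passed in edgeR or DESeq2. At an unadjusted p-value under 0.05 in edgeR the count was 1, against 10.2% of all tested genes. Scap, the escort protein, had 74.2, 62.1 and 80.3 CPM in WT and 88.5, 97.6 and 81.1 CPM in ΔrsCBE. Its groups were apart by less than 1 CPM, and its log2 fold change was 0.27 ± 0.18 (SE; edgeR adjusted p = 0.673). For Insig2, the other INSIG gene, the log2 fold change was 0.37 ± 0.41 (SE; edgeR adjusted p = 0.830), and it was 0.13 without WT replicate 1 and 0.80 without WT replicate 3. Rnf145 and Rnf139 encode ubiquitin ligases of the endoplasmic reticulum in sterol control. The fitted difference on the log2 scale was 0.42 for Rnf145 (edgeR adjusted p = 0.369; 0.65 with the sex covariate) and -0.35 for Rnf139 (adjusted p = 0.608).

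Of 9 genes of uptake and transport 8 were tested, and 1 was called higher and 0 lower. The gene that passed was Mylip, a ubiquitin ligase that limits cholesterol uptake and is induced by the sterol sensor LXR. Mylip had 505, 526 and 426 CPM in WT and 631, 636 and 655 CPM in ΔrsCBE, and the groups did not overlap. It rose from 486 ± 52.9 to 641 ± 12.6 CPM (SD, n = 3), a log2 fold change of 0.41 ± 0.11 (SE), at the edge of the threshold (edgeR adjusted p = 0.04998). The call was lost with DESeq2 (adjusted p-value 0.132), with DESeq2 size factors (0.0515), with the replicate block (0.0861), with the sex covariate (0.217) and without any 1 library other than ΔrsCBE replicate 1 (0.0597 to 0.418). The direction stayed the same in each of these, with log2 fold changes of 0.32 to 0.48 over all 14 alternatives.

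Abca1, a cholesterol exporter also induced by LXR, had the highest log2 fold change of the 35 genes. It had 80.6, 88.4 and 95.8 CPM in WT and 133, 114 and 136 CPM in ΔrsCBE, without overlap. Its log2 fold change of 0.51 ± 0.17 (SE) did not pass the threshold (edgeR adjusted p = 0.145; unadjusted p-value 0.00449). LXR beta, Nr1h2, was at 158 to 180 CPM in WT and 171 to 209 in ΔrsCBE, and the other LXR gene, Nr1h3, had 4, 3 and 1 counts in WT and 0, 1 and 0 in ΔrsCBE. The Nr1h3 sums of 8 and 1 give a ratio of 0.110 with an exact interval of 0.00249 to 0.824 for counting error only. The dispersion ratio of its counts over both genotypes was 3.6, above that of pure counting noise. Taken over both genotypes, this ratio cannot separate scatter within a group from a difference between groups. Nr1h3 was not tested across libraries, so a difference was not shown. Of 11 fatty acid genes 7 were tested and 0 passed in edgeR or DESeq2. An unadjusted p-value under 0.05 in edgeR was reached by 1 gene, against 10.2% of all tested genes. That gene was Scd1, a desaturase named here after its values were seen, with 251, 244 and 184 CPM in WT and 319, 271 and 292 CPM in ΔrsCBE (log2 fold change 0.40, edgeR adjusted p-value 0.182, and 0.25 on the log2 scale without WT replicate 3). Acaca, acetyl-CoA carboxylase, gave a log2 fold change of 0.44 ± 0.37 (SE), which was 0.26 without WT replicate 1, 0.86 without WT replicate 3, 0.21 without ΔrsCBE replicate 2 and 0.22 with the sex covariate. Elovl5, a fatty acid elongase, gave one of -0.35 ± 0.20 (SE). The lowest log2 fold change of the 35 was that of Stard3, a sterol transfer protein of endosomes, at -0.50 ± 0.36 (SE; edgeR adjusted p = 0.711). It was -0.24 without ΔrsCBE replicate 3 and -0.17 with the sex covariate.

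**Figure D3:**
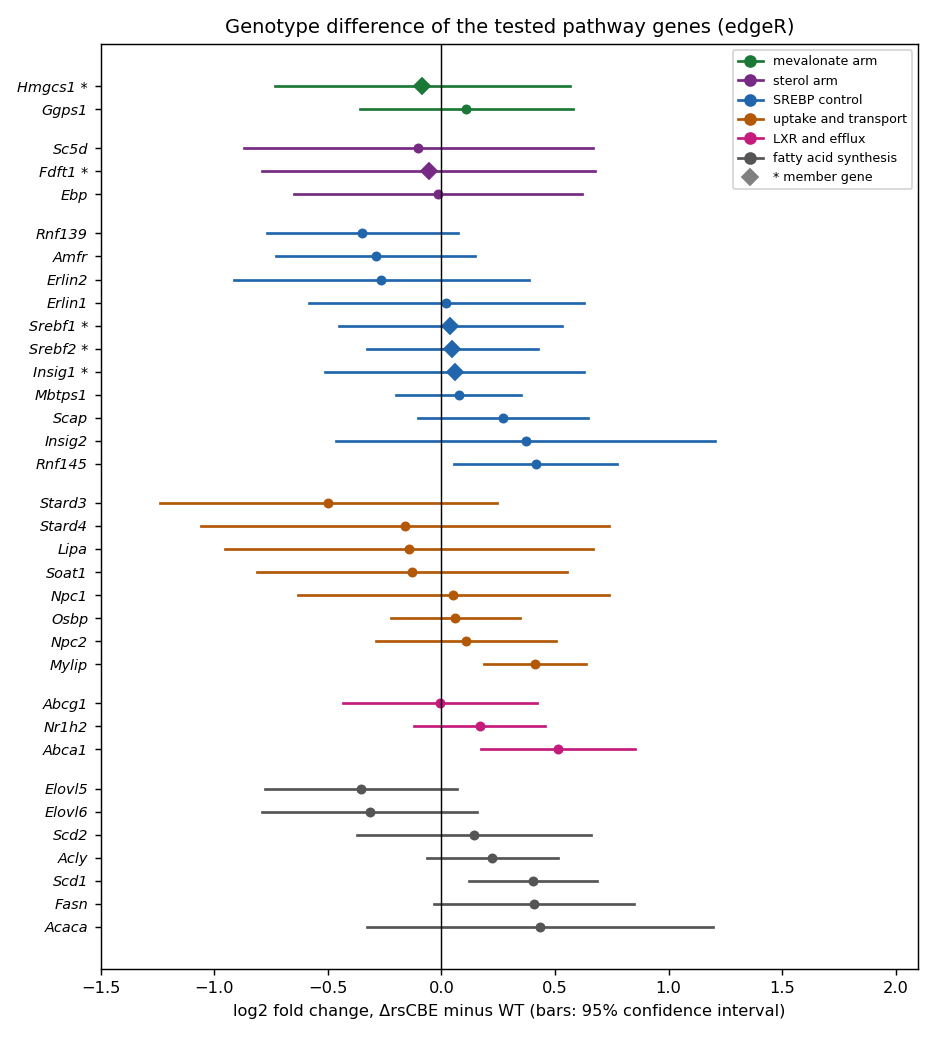
Log2 fold change, ΔrsCBE minus WT, of tested pathway genes with 95% confidence intervals from the edgeR fit, coloured by list, with diamonds for the 5 tested members. The members lie within 0.09 of 0, and the intervals of Mylip, Abca1, Scd1 and Rnf145 do not include 0 before adjustment for multiple tests.

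Of the 35 tested pathway genes 7 did not overlap between the genotypes, 5 higher and 2 lower in ΔrsCBE, beside 16.2% of all tested genes (7.24% higher and 8.95% lower). They were Mylip, Abca1, Scd1, Rnf145 and Scap, and Rnf139 and Elovl5. None of the 5 tested members was among them.

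**Figure D4:**
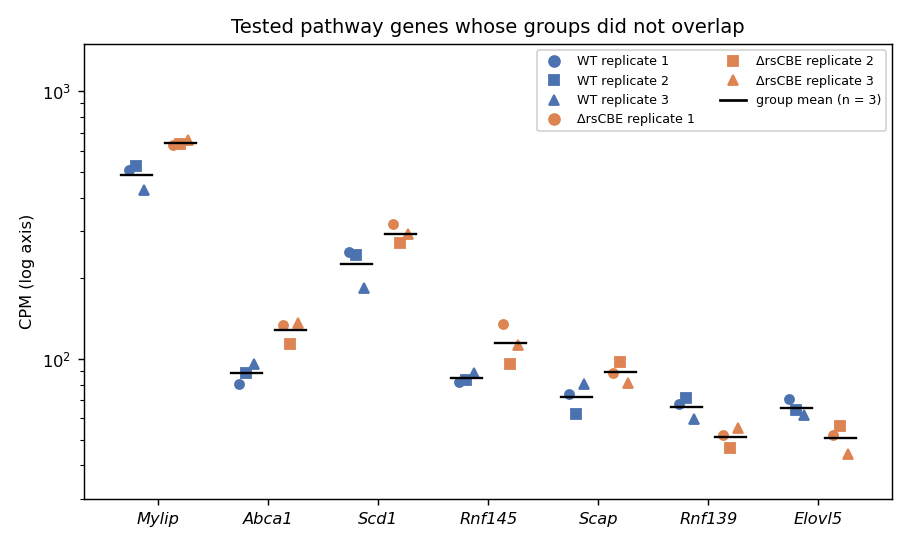
CPM on a log axis of the 7 tested pathway genes whose WT and ΔrsCBE libraries did not overlap, symbols as for the members, bars the group means (n = 3). Mylip, Abca1, Scd1, Rnf145 and Scap are higher in ΔrsCBE and Rnf139 and Elovl5 lower; only Mylip passed the threshold.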

How the data were processed

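The deposited table holds whole-number read counts per gene symbol for 6 libraries (3 WT, 3 ΔrsCBE), with no normalization by the authors. Per the submitters' processing notes, Trim Galore 0.6.10, STAR 2.7.11, HTSeq, DESeq2 and the mm10 build were used; the annotation, filters and strand setting are not given in the sources used here. Per the labels' protocols, libraries were made from rRNA-depleted total RNA with the SMARTer Stranded kit. Library sizes were 428106 to 1300805 counts, so 3 counts correspond to 2.32 to 7.17 CPM.

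Genes were kept by filterByExpr (minimum count 10), scaled by TMM and tested with edgeR 4.0.16 (glmQLFit, robust; glmQLFTest) in R 4.3.3, with Benjamini-Hochberg adjustment over 7792 genes and a threshold of 0.05. The fit was tested on simulated data. Standard errors come from the F statistic. Log2 CPM used a prior count of 2. Exonic lengths come from GENCODE M21, and intervals for summed counts were made with scipy 1.17.1. These intervals and the 3-count floor reflect counting error alone: the reads carry no stated molecular identifiers, so copies of a molecule cannot be recognised. By rule the text names all 8 members, each pathway gene past the threshold, the 3 highest and 3 lowest log2 fold changes, Scap and Insig2, and the 5 genes most like the enzymes. Fdps, Ebp, Ggps1, Nr1h2, Nr1h3 and Scd1 are pathway genes named outside that rule. The naming rule also covers a few genes not reported here. Members, lists and alternatives were chosen with earlier results of these data known. Alternatives were other scaling, DESeq2 1.42.0, other count filters, a threshold of 0.1, a replicate block, a sex covariate and each library left out.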

Additional observations from a re-analysis of the deposited data

How the results depend on the processing

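No tested member passed the threshold in any of the 70 values from alternatives (lowest adjusted p-value 0.611). Signs near 0 were not stable. Fdft1 turned to 0.026 with the DESeq2 Wald test, 0.061 with the replicate block and 0.477 with the sex covariate, and Hmgcs1 to 0.094 with the sex covariate; the cause was not tested. With 1 library left out, log2 fold changes ranged from -0.176 to 0.023 for Hmgcs1, -0.423 to 0.664 for Fdft1, -0.104 to 0.273 for Insig1, -0.121 to 0.164 for Srebf1 and -0.129 to 0.242 for Srebf2. The sex covariate moved the median of the members to 0.325 and of the pathway genes to 0.193, and 87 genes were called in that fit, against 132 in the reported one. The 1 pathway call, Mylip, became 0 with DESeq2 size factors, the DESeq2 Wald test, the replicate block and the sex covariate; it was 0 or 1 with 1 library left out. In those fits the count over all genes ranged from 59, without WT replicate 3 and likewise without ΔrsCBE replicate 3, to 187, and the medians from -0.129 to 0.164 for members and 0.032 to 0.168 for pathway genes.

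Same-numbered WT and ΔrsCBE replicates deviated from their group means with correlations of 0.0131, 0.0197 and 0.00908. Pairs with different numbers gave -0.0472 to 0.0345. No sign of pairing by number was seen, but at these low counts such correlations cannot show its absence. The replicate block gave 136 called genes. Its median was 0.0602 for members and 0.061 for pathway genes. Depth limits Sqle, Idi1 and Cyp51, which only fits with a looser count filter included, and each with an adjusted p-value of at least 0.751.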
